A study of Mus musculus with 7 samples.

Results

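Superoxide dismutases, peroxide-reducing enzymes and the mitochondrial NADPH source Nnt were followed in extensor digitorum longus, a fast-twitch hindlimb muscle of the mouse. The set was given as 10 gene symbols, namely Sod2, Prdx3, Prdx5, Txn2, Txnrd2 and Nnt of mitochondria, Sod1, Gpx1 and Gpx4 of the cytosol, and Sod3 of the extracellular space. For each symbol the probe set with the highest mean over all arrays was used. That left 9 of the 10 genes, among 19938 genes tested, because no probe set was paired with the symbol Prdx5 alone and Prdx5 is not analysed here. RNA came from 3 mice labelled AMPKα1α2 double knockout and 4 mice labelled wild type, with 1 single-colour array per mouse. AMPK is a kinase that senses falling ATP, and α1 and α2 are its catalytic subunits. Mice of both genotypes carried the same stated background, a mix of C57/Bl6 and SV129. Age, sex, the C57/Bl6 substrain, the cells that carried the deletion and any exercise before sampling are not given in the labels.

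Superoxide leaks from the respiratory chain and from NADPH oxidases. Dismutases turn it into hydrogen peroxide, Sod2 in the mitochondrial matrix, Sod1 in the cytosol and the space between the mitochondrial membranes, and Sod3 outside the cell. Peroxide is then reduced by peroxiredoxins, which are recharged by thioredoxin and thioredoxin reductase, or by glutathione peroxidases, which use glutathione. Both routes draw on NADPH. In the matrix Nnt makes NADPH from NADH with the energy of the proton gradient, and isocitrate dehydrogenase Idh2 makes it from isocitrate. Working muscle makes much of its peroxide in the fibres themselves, and the matrix enzymes are dense in oxidative fibres. Mice of the C57BL/6J substrain carry a deletion of several exons of Nnt, whereas other C57BL/6 substrains and SV129 mice carry the whole gene.

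The windows around the start sites of Sod2, Prdx3 and Sod1 are shown because the first pair were lower in the knockout by more than Sod1 was, as described further on. Each is read 5′ to 3′ on the strand of its gene, from RefSeq on GRCm38.p6, and spans 250 bases before the start to 50 after it. Capitals mark matches on either strand to the GC box GGGCGG or to the antioxidant response element TGACNNNGC, which NRF2 binds. The windows are chr17:13007589-13007888 on the plus strand for Sod2, chr19:60874489-60874788 on the minus strand for Prdx3 and chr16:90220512-90220811 on the plus strand for Sod1.
Sod2: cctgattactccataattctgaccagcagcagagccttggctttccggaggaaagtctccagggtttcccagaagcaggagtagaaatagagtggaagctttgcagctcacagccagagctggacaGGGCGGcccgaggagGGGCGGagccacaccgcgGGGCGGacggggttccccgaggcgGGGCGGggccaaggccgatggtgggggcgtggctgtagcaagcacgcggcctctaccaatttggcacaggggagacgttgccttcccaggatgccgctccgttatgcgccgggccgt
Prdx3: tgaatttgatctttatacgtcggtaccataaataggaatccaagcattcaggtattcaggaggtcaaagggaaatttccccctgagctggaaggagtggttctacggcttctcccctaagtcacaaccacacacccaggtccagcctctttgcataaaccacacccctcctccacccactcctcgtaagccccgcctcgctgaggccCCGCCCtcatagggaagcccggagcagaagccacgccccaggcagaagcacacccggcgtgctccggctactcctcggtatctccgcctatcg
Sod1: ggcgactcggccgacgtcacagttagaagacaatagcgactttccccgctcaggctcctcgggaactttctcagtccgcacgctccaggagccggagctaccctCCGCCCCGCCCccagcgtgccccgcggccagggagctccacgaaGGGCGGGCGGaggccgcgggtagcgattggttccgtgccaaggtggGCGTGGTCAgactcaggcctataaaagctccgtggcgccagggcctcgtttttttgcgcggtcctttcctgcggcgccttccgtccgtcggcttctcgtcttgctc

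Windows were found for 8 of the 10 genes, with none for Nnt or Sod3. There were 11 windows in all since Gpx4 has several start sites. The Gpx4 windows that start at 80053315 and 80053409 on chromosome 10 overlap and share their GC boxes, which are counted in both. The GC box occurred in 10 of these 11 windows and in 35.7% of all 32851 windows in the RefSeq table. The Sod2 and Sod1 windows held 4 GC boxes each, in Sod1 as overlapping pairs, and the Prdx3 window held 1. The antioxidant response element occurred in the Sod1 window alone, as GCGTGGTCA on the reverse strand at position -56 from the start, and in 12.4% of all windows. The estrogen-related receptor element AAGGTCA and the nuclear respiratory factor 1 element GCGCATGCG occurred in 0 of the 11 windows, and in 4.72% and 1.75% of all windows. The letters are a description of sequence and carry no measure of binding.

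Array medians lay between 7.52 and 7.58 in knockout and between 7.501 and 7.54 in wild type muscle, on a log2 scale. Fast fibre markers fitted the tissue label, with a mean over 10 genes of 13.72 to 13.74 in knockout and 13.69 to 13.74 in wild type arrays. Prkaa1, which encodes α1, differed by -0.51 ± 0.09 (SE, adjusted p = 0.12 in limma) and Prkaa2, which encodes α2, by -0.21 ± 0.07 (SE, adjusted p = 0.39 in limma). Which exons the probes read is not given, so these values do not check the deletion. The mean of 12 immediate early genes, which respond to a stimulus within minutes, was 10.62 in knockout replicate 2, 8.72 and 9.03 in knockout replicates 1 and 3, and 8.56 to 8.82 in wild type arrays. Slow fibre markers averaged 8.94, 8.52 and 9.22 in knockout replicates 1 to 3 and between 8.31 and 8.50 in wild type arrays. In whole muscle, fewer cells of a type and less RNA per cell cannot be told apart.

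Mitochondrial redox transcripts had lower values in knockout muscle, with Nnt, Sod2 and Prdx3 furthest from wild type. Gpx1 and Sod3 had higher values, and Txn2, Txnrd2 and Gpx4 overlapped between the genotypes. Over all genes, 5 of 19938, or 0.0251%, had an adjusted p under 0.05 in limma with Benjamini-Hochberg adjustment, and 0 of the 9 redox genes were among them. At an unadjusted p under 0.05 there were 6 of the 9, where 10.6% of all genes passed in either direction. Of those, 4 were lower (Nnt, Sod2, Prdx3 and Sod1) and 2 higher (Gpx1 and Sod3), where 6.69% of all genes were lower and 3.93% higher. The same 6 genes had no overlap between genotypes, against 8.61% of all genes, 5.33% in the lower and 3.29% in the higher direction. The median difference over the 9 genes was -0.07, against -0.0049 over all genes.

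**Figure D1:**
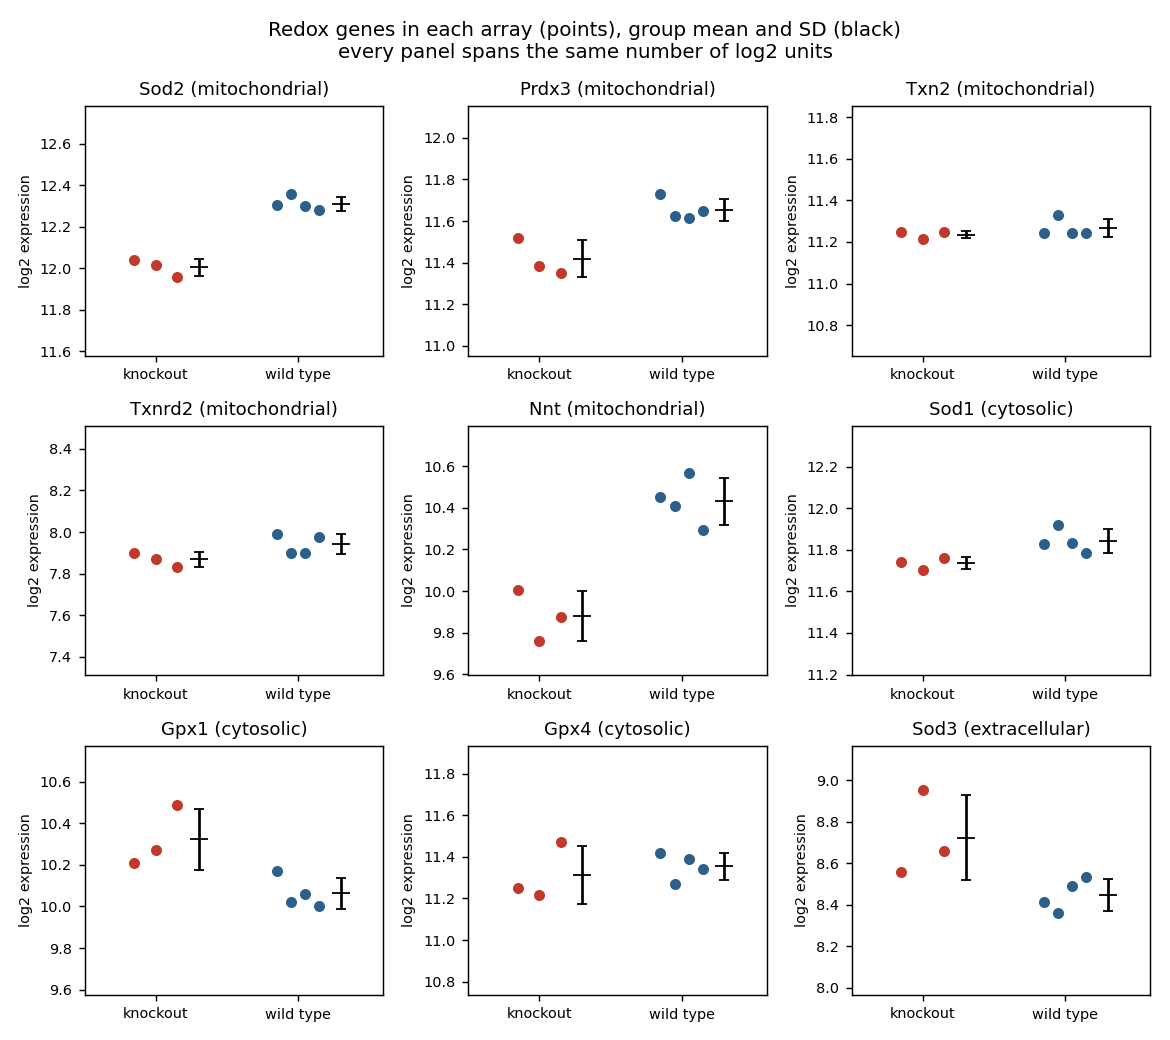
Log2 expression of the 9 measured redox genes, with 3 knockout arrays on the left of each panel and 4 wild type arrays on the right. Black marks give the group mean and SD, and every panel spans the same number of log2 units. Knockout points lie below all wild type points for Sod2, Prdx3, Nnt and Sod1 and above them for Gpx1 and Sod3.

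Sod2, the manganese dismutase of the matrix (probe set 10441815), read 12.04, 12.02 and 11.96 in knockout replicates 1 to 3 and 12.31, 12.36, 12.30 and 12.28 in wild type replicates 1 to 4. The 3 knockout arrays lay together, below all wild type arrays, and the distance between the groups was wide beside the spread in either. The mean was 12.01 ± 0.04 (SD, n = 3) in knockout and 12.31 ± 0.03 (SD, n = 4) in wild type muscle. Sod2 was thus 1.24-fold lower, by -0.31 ± 0.03 on the log2 scale (SE). The 95% interval of the difference ran from -0.39 to -0.22. In limma the unadjusted p was 4.9e-05 and the adjusted p 0.083, so it did not pass.

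Prdx3, the matrix peroxiredoxin that clears most of the hydrogen peroxide formed there (probe set 10468869), read 11.52, 11.38 and 11.35 in knockout and 11.73, 11.62, 11.62 and 11.65 in wild type muscle. All knockout arrays were below all wild type arrays, with knockout replicate 1 nearest to them. The log2 difference was -0.24 ± 0.05 (SE, 95% interval -0.36 to -0.11), with an unadjusted p of 0.0024 and an adjusted p of 0.18 in limma.

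Thioredoxin 2 and its reductase, which recharge Prdx3, differed less. Txn2 (probe set 10430247) averaged 11.24 ± 0.02 (SD, n = 3) in knockout and 11.27 ± 0.04 (SD, n = 4) in wild type muscle, and 6 of the 7 arrays lay between 11.21 and 11.25. The other, wild type replicate 2, read 11.33. The log2 difference was -0.03 with a 95% interval of -0.11 to 0.05 (adjusted p = 0.80 in limma), and -0.01 without wild type replicate 2. Txnrd2, a selenoprotein (probe set 10434191), read 7.90, 7.87 and 7.83 in knockout and 7.99, 7.90, 7.90 and 7.98 in wild type muscle. Knockout replicate 1 and wild type replicates 2 and 3 were listed at the identical value of 7.90, so the genotypes met there. The log2 difference was -0.07 ± 0.04 (SE, 95% interval -0.16 to 0.01, adjusted p = 0.56 in limma).

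Nnt, the proton-driven transhydrogenase of the inner membrane (probe set 10412394), had the largest difference among the 9 genes. It read 10.004, 9.76 and 9.87 in knockout replicates 1 to 3 and 10.45, 10.41, 10.57 and 10.29 in wild type replicates 1 to 4. The mean was 9.88 ± 0.12 in knockout (SD, n = 3) and 10.43 ± 0.11 in wild type muscle (SD, n = 4). Nnt was thus 1.47-fold lower, by -0.55 ± 0.08 on the log2 scale (SE, 95% interval -0.74 to -0.36). The unadjusted p was 0.00023 and the adjusted p 0.095 in limma. Within a genotype the arrays spanned 0.24 log2 units in knockout and 0.28 in wild type muscle, and 0.81 over all 7. No array stood apart from the others of its genotype.

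The Nnt alleles of these mice are not given, and the background can hold both the deleted and the whole form. Which exons of Nnt the probes read is not given either, so the values do not show which form a mouse carried. Each genotype was sampled from a mixed background, so for Nnt a difference in allele and an effect of the AMPK deletion cannot be told apart. In the RefSeq gene table Prkaa1 and Prkaa2 lie on other chromosomes than Nnt.

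The 10 measured genes on each side of Nnt were read as well. Their median difference was -0.04, and 0 of 20 passed in limma after adjustment. An unadjusted p under 0.05 was reached by 1 higher and 3 lower genes, where 3.93% of all genes were higher and 6.69% lower. Of the 20, 2 did not overlap between genotypes, against 8.61% of all genes. Emb, a cell adhesion protein that partners lactate carriers, had the smallest p and went the other way from Nnt, from which it lies 2061 kb. It read 7.10, 7.67 and 7.22 in knockout and 6.87, 6.87, 7.05 and 6.88 in wild type muscle, a log2 difference of 0.41 ± 0.13 (SE, adjusted p = 0.37 in limma). Paip1, the measured gene nearest to Nnt at 19 kb, was on the same side as Nnt. Its values of 10.15, 9.94 and 9.65 in knockout and 10.33, 10.11, 10.19 and 10.20 in wild type muscle overlapped. The log2 difference of Paip1 was -0.30 ± 0.11 (SE, adjusted p = 0.44 in limma). Tmem267, the fourth measured gene after Nnt, was picked out after its values were seen. It read 8.63, 8.11 and 8.54 in knockout and 10.01, 8.81, 8.62 and 10.18 in wild type muscle. Wild type replicates 1 and 4 thus lay more than a log2 unit above replicates 2 and 3, and the wild type SD of 0.80 was above that of 99.9% of all genes. All 3 knockout arrays lay nearer to wild type replicates 2 and 3 than to 1 and 4 for Tmem267. For Nnt, wild type replicates 1 and 4 read 10.45 and 10.29 and replicates 2 and 3 read 10.41 and 10.57. Whether Tmem267 values go with the Nnt allele was not tested.

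**Figure D2:**
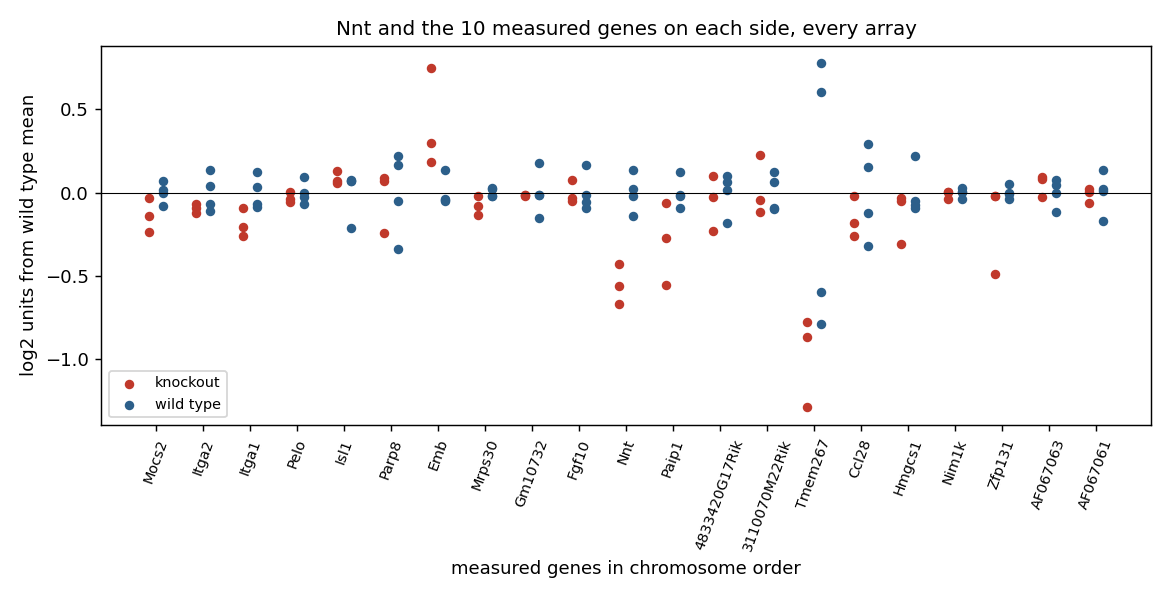
Log2 units from the wild type mean for Nnt and the 10 measured genes on each side of it, in chromosome order, with each knockout array (red, left) and each wild type array (blue, right) as a point. Nnt is lower in all 3 knockout arrays, its neighbours mostly overlap, and Tmem267 has 2 high and 2 low wild type arrays.

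Outside the matrix the directions were mixed. Sod1, the copper-zinc dismutase (probe set 10436783), read 11.74, 11.70 and 11.76 in knockout and 11.83, 11.92, 11.83 and 11.79 in wild type muscle. The groups did not overlap, but knockout replicate 3 and wild type replicate 4 were close. The log2 difference was -0.11 ± 0.04 (SE, 95% interval -0.20 to -0.01), with an adjusted p of 0.42 in limma.

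Gpx1, the abundant selenium-dependent glutathione peroxidase found mostly in the cytosol and partly in mitochondria (probe set 10588899), read 10.21, 10.27 and 10.49 in knockout and 10.17, 10.02, 10.06 and 10.004 in wild type muscle. The knockout arrays were all higher, with replicate 1 just above wild type replicate 1. The log2 difference was 0.26 ± 0.07 (SE, 95% interval 0.08 to 0.44), or 1.197-fold higher, with an adjusted p of 0.31 in limma. Without knockout replicate 3 it was 0.18.

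Gpx4, which reduces lipid peroxides in membranes and has cytosolic, mitochondrial and nuclear forms, had 2 probe sets. Probe set 10363000 read 11.25, 11.22 and 11.47 in knockout and 11.42, 11.27, 11.39 and 11.34 in wild type muscle, so knockout arrays held both the lowest and the highest value. Its log2 difference was -0.04 ± 0.07 (SE, 95% interval -0.21 to 0.12, adjusted p = 0.88 in limma), and 0.0059 without knockout replicate 2. Probe set 10364675 differed by -0.05. The RefSeq table lists processed copies of Gpx4 as pseudogenes, and which of these sequences the probes read is not given, so the forms and copies of Gpx4 cannot be told apart.

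Sod3, the secreted dismutase bound to the matrix around vessels and fibres (probe set 10521824), read 8.56, 8.95 and 8.66 in knockout and 8.42, 8.36, 8.49 and 8.53 in wild type muscle. All knockout arrays were above all wild type arrays, replicate 1 by little and replicate 2 by most. The log2 difference was 0.27 ± 0.10 (SE, 95% interval 0.05 to 0.50, adjusted p = 0.40 in limma), and 0.16 without knockout replicate 2, the array with high immediate early genes.

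**Figure D3:**
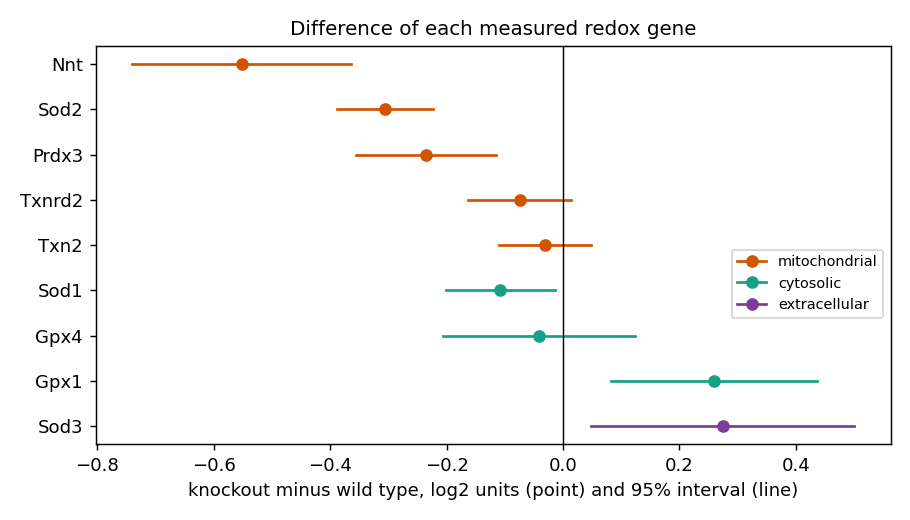
Knockout minus wild type difference of each measured redox gene in log2 units, with the 95% interval from limma, coloured by compartment. The 5 mitochondrial genes lie at or below -0.03, with Nnt at -0.55, whereas Gpx1 at 0.26 and Sod3 at 0.27 lie above 0.

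Markers of some other cells differed between the genotypes too, and their part in the differences of the redox genes was not tested. All 11 myeloid markers were higher in every knockout array than in any wild type array, against 3.29% of all genes. The myeloid mean was 8.85 to 8.996 in knockout and 8.17 to 8.39 in wild type muscle. Lyz2 (0.94 ± 0.05, SE) and Tyrobp (0.63 ± 0.05, SE) passed in limma (adjusted p = 0.0088 and 0.017). All 9 endothelial markers averaged lower values, 6 of them at an unadjusted p under 0.05, against 6.69% of all genes, and 0 passed after adjustment. The endothelial mean was 9.21 to 9.33 in knockout and 9.52 to 9.71 in wild type muscle. The mean of 7 smooth muscle and pericyte markers was 9.11 to 9.24 in knockout and 9.25 to 9.42 in wild type muscle. The mean of 6 fibroblast markers overlapped, at 10.61 to 11.11 in knockout and 10.44 to 10.87 in wild type muscle. Of the 6, 2 were higher at an unadjusted p under 0.05, against 3.93% of all genes, and 0 lower. The same 2 were higher without overlap, against 3.29% of all genes, and 0 passed after adjustment. The 2 measured erythroid markers ran from 7.65 to 8.94 in knockout and from 8.13 to 8.596 in wild type muscle, and 4 adipocyte markers from 7.36 to 7.59 in knockout and from 7.56 to 7.82 in wild type muscle. Gpx1 is abundant in myeloid and red blood cells as well as in fibres, and Sod3 in vessel walls. In knockout muscle Sod3 was higher, and the endothelial mean and the smooth muscle and pericyte mean were lower. How these values are related was not tested.

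Against the mean of the cytosolic genes, the mean of the mitochondrial genes was lower in knockout arrays, though Txn2 and Txnrd2 themselves overlapped between the genotypes. The mean of the 5 measured mitochondrial genes was 10.54, 10.45 and 10.45 in knockout and 10.74, 10.72, 10.73 and 10.69 in wild type muscle, a log2 difference of -0.24. The mean of the 3 cytosolic genes was 11.07, 11.06 and 11.24 in knockout and 11.14, 11.07, 11.09 and 11.04 in wild type muscle, a log2 difference of 0.04, and the genotypes overlapped. Mitochondrial minus cytosolic mean differed by -0.28 between the genotypes, with values of -0.79 to -0.52 in knockout and -0.39 to -0.35 in wild type arrays. Nnt, whose allele is not given, weighed most on the mitochondrial mean, at -0.55 beside -0.31 to -0.03 for the other mitochondrial genes. A value without Nnt was not computed. Genes with products in several compartments also weighed on the mitochondrial minus cytosolic difference. With Gpx1 and Gpx4 left out, so that Sod1 alone stood for the cytosol, it was -0.13, and knockout replicate 1 at -1.199 lay just below wild type replicate 2 at -1.196.

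Matched pairs of a matrix enzyme and its relative outside mitochondria gave a comparison in which each array serves as its own scale. For Sod2 minus Sod1 the values were 0.30, 0.31 and 0.20 in knockout and 0.48, 0.44, 0.46 and 0.49 in wild type arrays. The groups did not overlap, and the difference between them was -0.20, so by the measured values Sod2 was further below wild type than Sod1 was. For Prdx3 minus Prdx2, the cytosolic peroxiredoxin, the difference was -0.20, with 0.14, -0.01 and -0.05 in knockout and 0.27, 0.23, 0.17 and 0.25 in wild type arrays. Prdx2 itself differed by -0.03 ± 0.03 (SE).

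The remaining pairs were not alike. Idh2 minus its cytosolic relative Idh1 differed by -0.30, with 1.31, 1.31 and 1.04 in knockout and 1.38, 1.69, 1.54 and 1.48 in wild type arrays. Glrx2 minus Glrx, the glutaredoxins that reduce glutathione-bound proteins, differed by 0.29, the other way round. There the matrix form Glrx2 was at -0.01 ± 0.03 (SE) and the cytosolic Glrx at -0.30 ± 0.06 (SE). Txn2 minus the cytosolic thioredoxin Txn1 differed by -0.05 and Txnrd2 minus Txnrd1 by -0.11, and in both the genotypes overlapped. The last turned to 0.06 without knockout replicate 2, where Txnrd1 read 9.72, against 9.38 and 9.06 in knockout replicates 1 and 3.

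Each of the 6 pairs was tested with an exact two-sided permutation test over the 35 ways to place 3 of 7 arrays, whose smallest possible p is 0.029. The exact permutation p was 0.029 for Sod2 with Sod1, Prdx3 with Prdx2 and Glrx2 with Glrx, 0.057 for Idh2 with Idh1, 0.20 for Txn2 with Txn1 and 0.60 for Txnrd2 with Txnrd1. After Benjamini-Hochberg adjustment over the 6 pairs the first 3 stood at an adjusted permutation p of 0.057 and Idh2 with Idh1 at 0.086. With 6 pairs and 7 arrays an adjusted p under 0.05 needs at least 4 pairs at the smallest possible p, so missing it says little about any single pair.

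**Figure D4:**
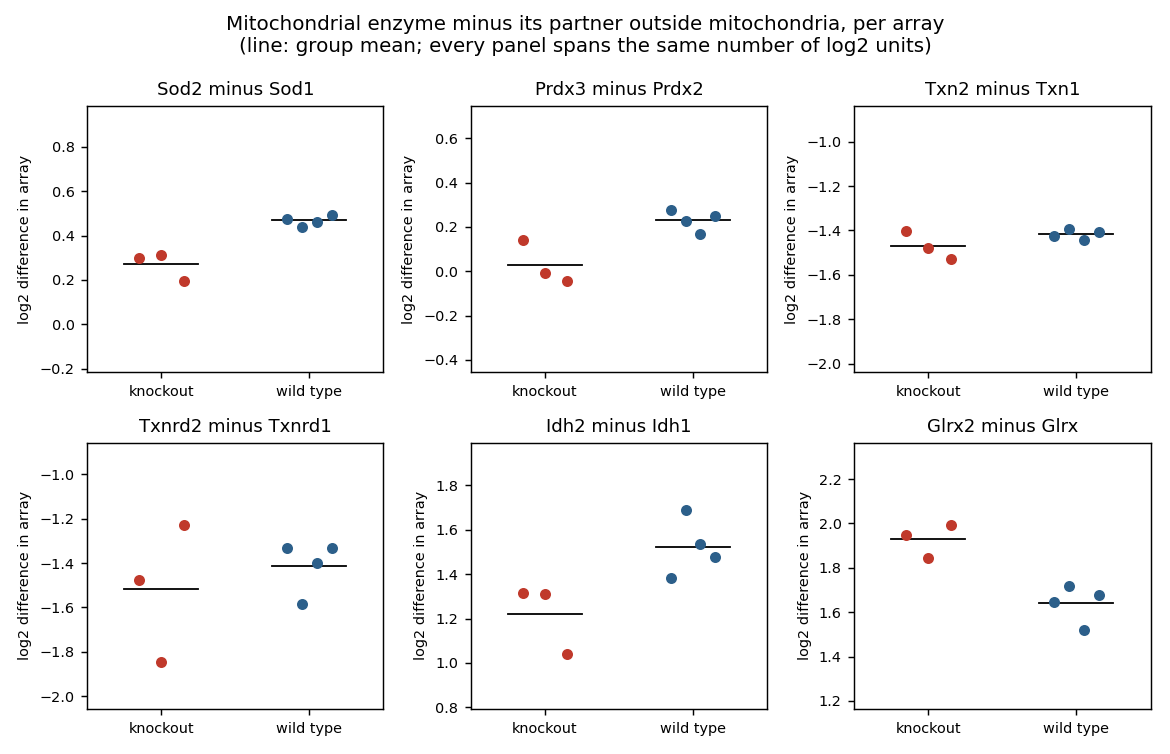
Log2 value of a mitochondrial enzyme minus that of its relative outside mitochondria in each array, with 3 knockout arrays on the left, 4 wild type arrays on the right and lines at the group means. Knockout arrays lie below wild type arrays for the Sod, Prdx3 and Idh pairs, above them for the glutaredoxin pair, and overlap for the thioredoxin and reductase pairs.

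Other mitochondrial genes were lower in the same arrays. Of 13 measured markers of mitochondrial content, such as citrate synthase and respiratory subunits, 13 were below wild type on average. At an unadjusted p under 0.05 there were 11, where 6.69% of all genes were lower, and 0 passed after adjustment. The markers had a median difference of -0.14, and their mean was 12.19 to 12.21 in knockout and 12.33 to 12.39 in wild type arrays. Ndufs1 of complex I differed by -0.25 ± 0.05 (SE, adjusted p = 0.13 in limma) and fumarase Fh1 by -0.21 ± 0.04 (SE, adjusted p = 0.15 in limma).

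The members were then set against the mean of these content markers within each array, a step chosen after the data were seen. Nnt then differed by -0.40, with -2.45 to -2.21 in knockout and -2.04 to -1.78 in wild type arrays. Sod2 differed by -0.15, with -0.23 to -0.17 in knockout and -0.07 to -0.03 in wild type arrays. Both stayed below wild type in all arrays. Prdx3 differed by -0.08 and overlapped, at -0.84 to -0.69 in knockout and -0.77 to -0.64 in wild type arrays. The marker mean itself differed by -0.16, so a gene with equal values in both genotypes lies higher in knockout on this scale. Txn2, at -0.03 before the subtraction, differed by 0.12 after it. Its values were -0.9996 to -0.94 in knockout and -1.13 to -1.06 in wild type arrays. Txnrd2, at -0.07 before, differed by 0.08, with -4.36 to -4.31 in knockout and -4.49 to -4.35 in wild type arrays.

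Genes whose log2 values ran most alike over the 7 arrays were sought for Sod2 and Nnt by Pearson's r, which the genotype difference itself raises. For Sod2 they were Cox5a of complex IV (r = 0.990), the protein methyltransferase gene Mettl11b (r = 0.987) and the growth factor Vegfb (r = 0.985). With the genotype means taken out, r was 0.758 for Cox5a, 0.707 for Mettl11b and 0.765 for Vegfb. For Nnt they were Jcad, an endothelial junction gene (r = 0.996), the mitochondrial carrier Slc25a36 (r = 0.985) and the mitochondrial kinase-like gene Adck1 (r = 0.983). Within genotypes r was 0.969 for Jcad, 0.859 for Slc25a36 and 0.913 for Adck1. Jcad differed by -0.18 ± 0.04 (SE) and read 9.79, 9.70 and 9.76 in knockout and 9.93, 9.93, 9.98 and 9.89 in wild type muscle. Between Sod2, Prdx3 and Nnt, r was 0.90 to 0.93 over the 7 arrays and 0.20 to 0.38 within genotypes. These values describe 7 arrays that share a genotype contrast.

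Other redox genes were read from lists. None of the list members named next passed after adjustment over all genes in limma, and the counts that follow are at an unadjusted p under 0.05. Of all 19938 genes, 6.69% were lower and 3.93% higher at that level. Among 9 genes of mitochondrial NADPH supply, 2 were lower and 1 higher, with a median difference of -0.05. Idh2 was lowest in relation to its spread, at 11.04, 10.77 and 10.96 in knockout and 11.26, 11.30, 11.36 and 11.13 in wild type muscle. Its log2 difference was -0.34 ± 0.08 (SE, adjusted p = 0.23 in limma), so this NADPH source lay on the same side as Nnt. The malic enzyme Me2, which is linked mainly to NAD, differed by 0.23 ± 0.08 (SE). Among 7 genes of NADPH supply outside mitochondria, 1 was lower and 0 higher, with a median of 0.00067. There the malic enzyme Me1 differed by -0.26 ± 0.10 (SE) and H6pd, which makes NADPH in the endoplasmic reticulum, by 0.10 ± 0.05 (SE).

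Among 20 genes of the glutathione system, 3 were lower and 0 higher, with a median of -0.06. Glrx read 9.06, 9.13 and 9.01 in knockout and 9.40, 9.29, 9.49 and 9.29 in wild type muscle (adjusted p = 0.15 in limma), with no overlap. Mgst3, a microsomal transferase with peroxidase activity, differed by -0.46 ± 0.12 (SE). Among 11 peroxiredoxin and thioredoxin genes outside mitochondria, 2 were lower and 1 higher. Txnip, which binds and inhibits thioredoxin and is a known target of AMPK at the protein level, read 12.58, 11.99 and 12.38 in knockout and 12.75, 12.44, 12.95 and 12.84 in wild type muscle. Those values overlapped, with a difference of -0.43 ± 0.17 (SE, adjusted p = 0.44 in limma). The thioredoxin-related Txndc17 differed by 0.09 ± 0.04 (SE).

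In a list of 11 genes with catalase, copper loading and repair, 3 were lower and 1 higher, with a median of 0.0055. Msrb3 and the mitochondrial Msrb2, both methionine sulfoxide reductases, differed by -0.32 ± 0.06 and -0.34 ± 0.10 (SE), and neither overlapped. Msrb3 read 11.77, 11.72 and 11.56 in knockout and 11.99, 11.95, 11.99 and 12.06 in wild type muscle. Among 8 genes for making selenoproteins, the class that holds Gpx1, Gpx4 and Txnrd2, 0 were lower and 0 higher. The elongation factor Eefsec differed by -0.15 ± 0.06 (SE) and the kinase Pstk by -0.30 ± 0.13 (SE).

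In the NRF2 pathway, which induces antioxidant genes, 1 of 17 genes was higher and 1 lower, with a median of 0.12. The list mean was 9.34, 9.71 and 9.23 in knockout and 9.22 to 9.32 in wild type arrays, so knockout replicate 2 stood out. Ftl1, the ferritin light chain, differed by 0.30 ± 0.06 (SE) and Keap1, which holds NRF2 inactive, by -0.14 ± 0.06 (SE). Among 13 FoxO, sestrin, sirtuin and PGC-1 genes, 3 were lower and 0 higher, with Foxo4 at -0.31 ± 0.08 (SE) and the mitochondrial deacetylase Sirt3 at -0.18 ± 0.05 (SE). Sirt3 deacetylates and activates Sod2 and Idh2 proteins. Among 12 oxidase genes, 3 were higher and 1 lower. Cybb, the catalytic subunit of the phagocyte NADPH oxidase, read 8.47, 7.94 and 8.41 in knockout and 7.82, 7.40, 7.77 and 7.63 in wild type muscle (0.62 ± 0.15, SE), beside the higher myeloid markers given above. Maob, the monoamine oxidase of the outer mitochondrial membrane, differed by -0.37 ± 0.12 (SE).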

How the data were processed

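Total RNA was labelled with biotin from 100 ng per sample, per the labels' protocols, and 1 array was made per mouse. The deposited table holds 28856 probe sets. Its values were read as log2 expression, since the deposited values run from 4.41 to 14.65 and exceed 11.09, the natural log of the highest 16-bit reading, so the base is inferred. Summarisation and normalization software and the genome build are not stated in the labels or file header. At least 2 arrays shared an identical value for 59.9% of probe sets. Probe sets were named through GEO's platform annotation and tested where they had exactly 1 symbol (21789, of which 21698 matched the RefSeq table by gene identifier). A further 1621 had several symbols and 5446 none.

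Knockout minus wild type was fitted with limma 3.58.1 in R 4.3.3 (lmFit, eBayes) over all 7 arrays without covariates, and p-values were adjusted by Benjamini-Hochberg over those 21789 probe sets. Each mouse gave 1 array, so p-values measure the spread between mice. The fit was tested on simulated data. Background readings were not used here. With 3 and 4 arrays a group, precision is limited. The members, lists and pairs were chosen with earlier results of these data known. Genes were named by rule: all members and pairs, the 2 smallest p of each redox list without a member, the smallest p among 10 neighbours on each side of Nnt, and 3 genes most like Sod2 and Nnt, passing over predicted genes. Outside that rule, Prkaa1 and Prkaa2 were named as the targeted genes and Lyz2 and Tyrobp as the myeloid markers that passed. Tmem267 was named for its spread and Paip1 as the measured gene nearest to Nnt. Lyz2, Tyrobp, Tmem267 and Paip1 were named after their values were seen. Alternatives are given in the closing section.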

Additional observations from a re-analysis of the deposited data

Results flagged for a closer look

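Among 41 named genes, 4 had a wild type array apart from the other 3 by Dixon's criterion at the 95% level, which flags about 1 in 20 groups by chance. Txn2 read 11.33 in wild type replicate 2 and 11.24 to 11.25 in the others. Txnrd1 read 9.48 in wild type replicate 2 and 9.30 to 9.32 in the others. Eefsec read 9.19 in wild type replicate 2 and 9.04 to 9.06 in the others. Emb read 7.05 in wild type replicate 3 and 6.87 to 6.88 in the others.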

How the results depend on the processing

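Over 15 alternative settings, 0 of the 9 redox genes passed an adjusted p under 0.05, and 134 of 135 gene results kept their sign and their side of that threshold. The exception was Gpx4, at 0.0059 without knockout replicate 2 (range -0.12 to 0.0059 when 1 array was left out). Txnrd2 minus Txnrd1 turned to 0.059 without the same array, with a range of -0.25 to 0.059. Adjusted p ran from 0.0505 (dim probe sets left out) to 0.36 for Sod2 and from 0.056 to 0.33 for Nnt. Same-numbered mice had deviations that correlated at 0.30, 0.15 and -0.20, so the numbers were not taken as pairs. With the replicate number as a block, in which wild type replicate 4 has no partner and adds nothing to the difference, Sod2 differed by -0.32, Nnt by -0.60, and 4 redox genes had an unadjusted p under 0.05. Genes with an unadjusted p under 0.05 otherwise numbered 5 to 7 of the 9, and those without overlap 5 to 7. Leaving out 1 array gave -0.34 to -0.20 for mitochondrial minus cytosolic genes, and leaving out Gpx1 and Gpx4 gave -0.13, because Sod1 alone then stands for the cytosol. Over all genes the count that passed was 0 with the block, against 5 without it, and the block cannot be told apart there from the loss of wild type replicate 4. It was 0 when wild type replicate 1, 3 or 4 was left out and 1 when wild type replicate 2 was, 14 when knockout replicate 1 was and 2 when knockout replicate 2 was. The cause was not tested.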
